A study of Mus musculus with 12 samples.

Results

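Aminoacyl-tRNA synthetases attach each amino acid to its transfer RNA and so supply every codon that a ribosome reads. Most amino acids have a cytosolic enzyme and a separate mitochondrial enzyme, both encoded in the nucleus, and several cytosolic enzymes sit together in a large multi-synthetase complex. In mammalian cells short of amino acids, the transcription factor ATF4 is known to raise a number of the cytosolic genes. The genes described here were taken by name from the deposited table: protein-coding genes named with the letter of an amino acid and the ending ars, with or without a 1 or a 2, and Ears2, Eprs, Farsa, Farsb, Fars2, Pars2 and Tarsl2. Of 29937 genes, 38 met this rule, 21 for cytosolic and 17 for mitochondrial enzymes. Mitochondrial enzymes were those whose names end in 2, except Tarsl2, a cytosolic paralog of Tars. The products of Gars and Kars serve both compartments and were counted as cytosolic. Of the cytosolic genes, 8 encode enzymes of the complex (Dars, Eprs, Iars, Kars, Lars, Mars1, Qars and Rars).

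The data are 12 RNA sequencing libraries of 4T1, a carcinoma line of the mouse mammary gland described as wild type and adherent, in groups of 3 called PBS, Oxa, APAP and OAP2 by treatment. The treatment label of the PBS controls reads DMSO, the names of the agents are not spelled out, and the sources used here give neither doses nor treatment times. The series' design text speaks of a xenograft made from the cells, whereas the sample labels name the cell line only. The series sets OAP2 against the other treatments, and 5 comparisons were made: OAP2, Oxa and APAP were each set against PBS, and OAP2 was also set against Oxa and against APAP. They share libraries, so values for a gene in different comparisons are not independent. Nothing in the labels says that libraries of a group came from separate cultures, so the spread behind each p-value is that of these libraries and may be technical.

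Total counts lay between 64071751 and 71500487 per library. The summed FPKM (fragment counts per length of transcript and per mapped fragment, so that levels of different genes can be compared) of 5 epithelial markers lay between 977 and 1320. PBS 2 stood apart: its 5 red blood cell markers summed to FPKM 230 and its 5 neutrophil markers to 65.6, against at most 0.37 and 0.54 in each other library. Of these 10 markers, 9 reached FPKM 1 in PBS 2 and none did elsewhere. The globin gene Hba-a2 and the neutrophil genes S100a9, Ngp and Retnlg were each listed at 0 in at least 8 libraries. The 5 macrophage markers summed to 45.9 in PBS 1 and to between 12.1 and 20.3 in the others, and each was highest in PBS 1. Lyz2 stood at 31.01 there and at most 9.27 elsewhere, Adgre1 at 1.51 and at most 0.42, and Cd68 at 12.81 and at most 12.04, while Csf1r and C1qa reached 0.44 and 0.14. The fibroblast, endothelial and lymphocyte markers summed to at most 2.09, 0.07 and 0.17. Counts of called genes with PBS 2 left out are given for the members and for the gene lists, and the part of the other cells' RNA in any result was not tested. In such bulk libraries, fewer cells of a type and less RNA per cell cannot be told apart.

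All 38 genes had an FPKM of at least 1 in all 12 libraries and were tested. Rars, the arginine enzyme, had the highest mean level (FPKM 132 over the 12 libraries, range 94.25 to 165.59), ahead of the glycine enzyme Gars (129) and the alanine enzyme Aars (114). The median of the 21 cytosolic means was FPKM 47, and the lowest was that of Tarsl2 at 3.36. Between these lay Nars at 92.9, Tars at 88.8, Kars at 81.5, Wars at 76.3, Sars at 76.2, Vars at 73.4, Iars at 60.5, Dars at 47, Farsb at 46.4 and Eprs at 44.8. They were followed by Lars at 40.4, Mars1 at 33, Yars at 32.8, Hars at 28.6, Farsa at 26.4, Qars at 20.6 and Cars at 17.7. Farsa and Farsb encode the alpha and beta subunits of the same phenylalanine enzyme, and Farsb was the higher in every library.

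The mitochondrial genes were expressed far lower, with a median of the 17 means of FPKM 2.6. Lars2, the leucine enzyme, stood out at a mean of 71 and is described separately below. Without it the class ran from Iars2 and Yars2 (both 10.8) and Rars2 (10.3) through Vars2 (9.03), Tars2 (8.82) and Hars2 (4.16) to a group of genes at the low end. That group held Nars2 (2.6), Aars2 (2.52), Cars2 (2.33), Ears2 (1.96), Wars2 (1.84), Sars2 (1.79), Pars2 (1.78), Mars2 (1.76) and Fars2 (1.49). Within groups the coefficient of variation of FPKM averaged 3.33% for Eprs, the steadiest gene, and 18.2% for Cars2, the most variable gene apart from Lars2.

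Cytosolic and mitochondrial enzymes for the same amino acid could be set side by side in 18 pairs. The cytosolic gene was the higher in all 12 libraries for each pair but Lars and Lars2. Among those pairs the gap was smallest for tyrosine, where the Yars level was 2.58 to 3.88 times that of Yars2, and widest for serine, alanine and tryptophan. For alanine the ratio of Aars to Aars2 ran from 37.4 to 62.3, for serine that of Sars to Sars2 from 26.7 to 79.1, and for tryptophan that of Wars to Wars2 from 28.5 to 58.7.

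**Figure D1:**
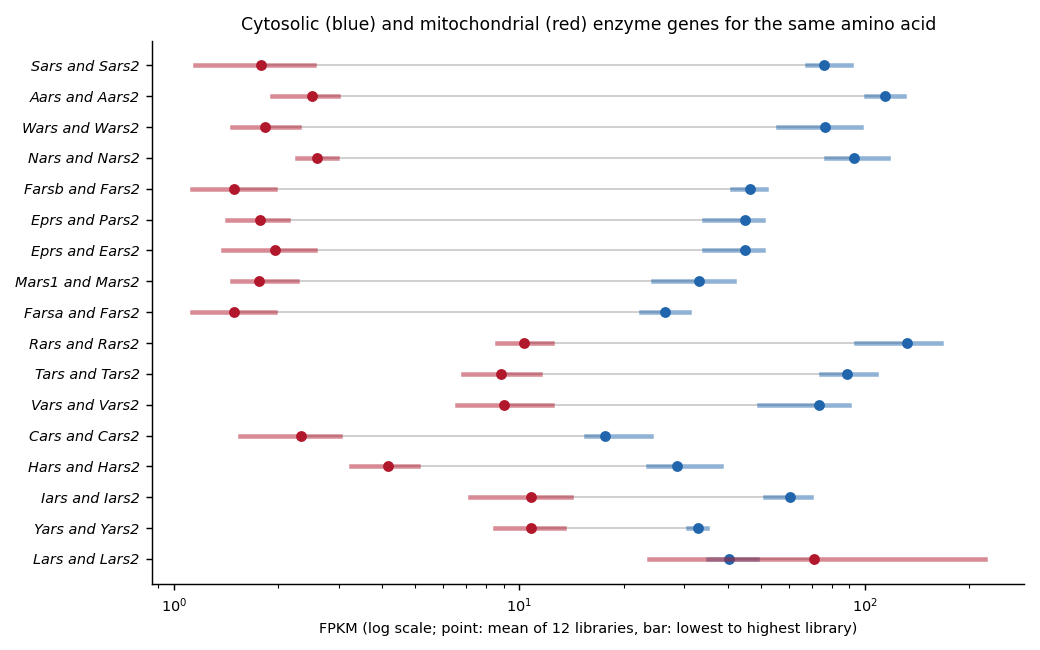
Level of the cytosolic (blue) and mitochondrial (red) enzyme gene for the same amino acid in 17 of the 18 pairs, as FPKM on a log axis; the point is the mean of the 12 libraries and the bar runs from the lowest to the highest library. The blue and red bars overlap for Lars and Lars2 only, and Eprs and Fars2 each appear in more than 1 row because they serve more than 1 pair.

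OAP2 against PBS asks what the treatment that the series is built around did to these genes. Mars1, which charges methionine onto the initiator and elongator tRNAs, and Vars, the valine enzyme, fell, and Wars, the tryptophan enzyme, known as an interferon-inducible gene, rose. These 3 of 38 members (7.89%) were called at an adjusted p below 0.05 (edgeR quasi-likelihood test, Benjamini-Hochberg adjustment over 12036 genes), while 5.25% of all genes tested were called (2.14% higher and 3.11% lower). All 3 are cytosolic, and 0 of 17 mitochondrial genes were called. At an unadjusted p below 0.05 there were 3 mitochondrial genes, where 2499 of the 12036 genes tested were. The difference between the classes was not tested. Groups that did not overlap were more frequent: 4 members stood higher in all OAP2 libraries than in any PBS library (8.78% of all genes) and 8 stood lower (9.94%). Besides the called genes these included Aars, Gars and Rars2 on the higher side, at log2 differences of 0.15 to 0.36, and Aars2, Iars, Lars, Tars and Tars2 on the lower side, at -0.34 to -0.21.

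Mars1 (chr10:127296221-127311786, minus strand, GRCm38) stood at FPKM 39.55, 36.59 and 41.68 in PBS 1 to 3 and at 25.96, 26.01 and 24.33 in OAP2 1 to 3. Every OAP2 library lay below every PBS library, and also below every APAP and Oxa library. The mean fell from 39.3 ± 2.56 to 25.4 ± 0.956 (SD, n = 3), a log2 change of -0.61 ± 0.08 (SE, edgeR adjusted p = 0.00103). Of 15 alternatives, the call was lost in 1, a fit of the 6 compared libraries alone (adjusted p = 0.0663). The annotated end of Mars1 overlaps that of Ddit3 by 68 bases on the opposite strand. Ddit3, which encodes the stress factor CHOP, was higher in the same OAP2 libraries (FPKM 54.32, 50.45 and 55.67, against 30.92, 34.72 and 31.27 in PBS). The name Ddit3 has 2 entries in the deposited data, and all values given for it are those of a protein-coding entry, with the other not examined. The libraries were made with a strand-marking method, but the sources used here do not say which strand was counted.

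Vars (chr17:35000987-35016322, plus strand) stood at FPKM 87.69, 68.62 and 87.66 in PBS 1 to 3 and at 60.73, 60.63 and 49.18 in OAP2 1 to 3. The groups did not overlap, though PBS 2 and the upper OAP2 libraries were close. The log2 change was -0.50 ± 0.13 (adjusted p = 0.0352). Wars (chr12:108860030-108894174, minus strand) stood at 67.78, 74.81 and 55.95 in PBS and at 86.78, 91.29 and 97.45 in OAP2, again without overlap. Its log2 change was 0.48 ± 0.12 (adjusted p = 0.0289). In edgeR, both calls were lost without PBS 1, without PBS 3 or without any single OAP2 library, at adjusted p between 0.0523 and 0.121. They were also lost with no filter on low values (0.0731 for Vars and 0.0941 for Wars) and in a fit of the 6 compared libraries alone (0.226 and 0.227). Wars overlaps Wdr25 by 544 bases on the opposite strand.

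The mitochondrial gene with the smallest p was Rars2, the arginine enzyme, at FPKM 8.62, 10.03 and 8.77 in PBS and 11.68, 12.14 and 11.19 in OAP2. The groups did not overlap, and the log2 difference of 0.36 ± 0.11 missed the threshold (edgeR adjusted p = 0.0716). Rars2 was called with DESeq2 (adjusted p = 0.0199), with FPKM of at least 5 required (0.0451) and without PBS 2 (0.0139). Without PBS 2 the count of called members was 7, when 16.4% of all genes were called. Gars, Rars2, Tarsl2 and Wars were then higher (log2 0.39, 0.44, 0.36 and 0.58) and Mars1, Vars and Tars2 lower (-0.66, -0.61 and -0.41), each at an edgeR adjusted p of 0.0336 or less. The levels of Gars in OAP2 were close together, at 143.20, 144.67 and 144.54, while PBS gave 117.47, 142.46 and 103.91, with PBS 2 nearest to OAP2. The 21 cytosolic genes had a median log2 difference of -0.01 and the 17 mitochondrial genes of -0.12, and all genes tested had one of -0.00071. Without PBS 2 the cytosolic and mitochondrial medians were 0.03 and 0.0029.

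**Figure D2:**
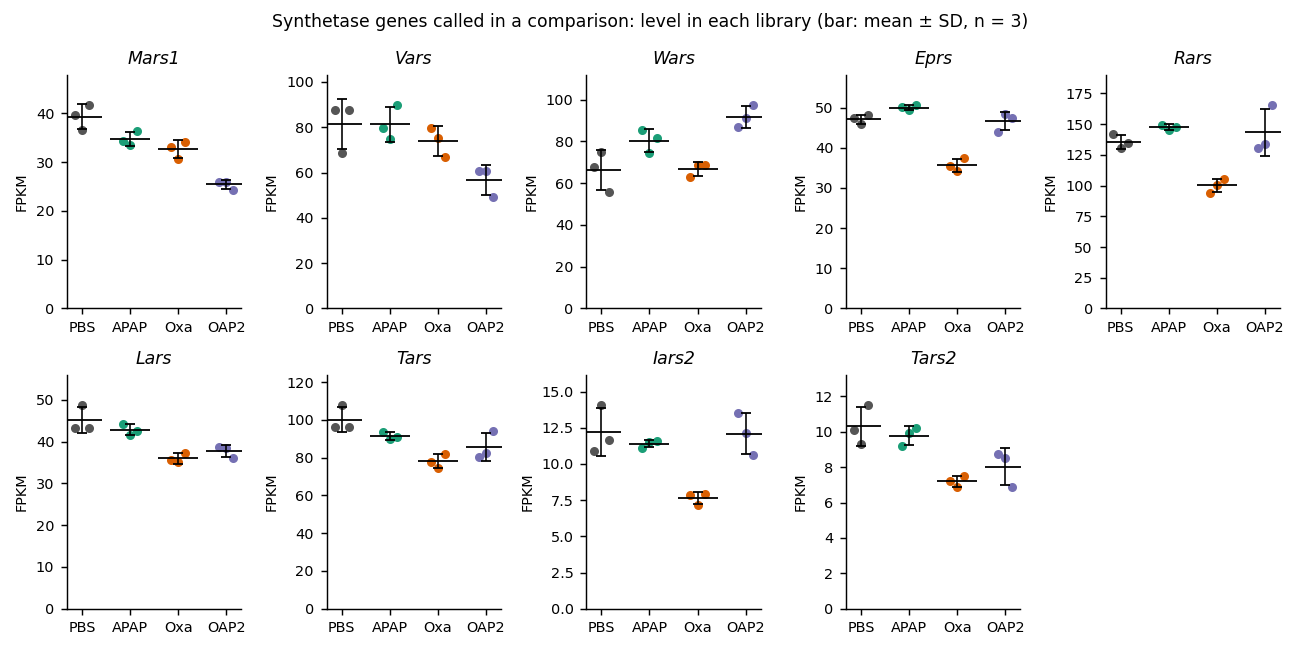
FPKM of 9 synthetase genes called in at least 1 comparison, on linear axes from 0; each point is a library, the long bar the group mean and the error bar ± 1 SD (n = 3), and points are spread sideways for legibility. Mars1 and Vars are lowest in OAP2 and Wars highest there, while Eprs, Rars and Iars2 are lowest in Oxa and near PBS in OAP2.

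In Oxa against PBS, 6 of 38 members (15.8%) were called, all lower, where 10.1% of all genes were called, 4.76% lower and 5.35% higher. They were the cytosolic genes Eprs, Rars, Lars and Tars and the mitochondrial genes Iars2 and Tars2. Of all 38 members, called or not, 16 had a positive log2 difference and 22 a negative one. Of the 8 genes of the multi-synthetase complex, 3 were called lower (Eprs, Rars and Lars), with 1 more, Mars1, just over the threshold at a log2 difference of -0.26 ± 0.08 (edgeR adjusted p = 0.0518). Of the 13 cytosolic genes outside the complex, 1 was called (Tars). Without PBS 2, 4 of the 8 were called (50%), all lower, and 4 of the 13 (30.8%), 2 lower and 2 higher, where 25.5% of all genes were called. The difference between the sets was not tested. The Oxa libraries stood below every PBS library for 10 members (14.6% of all genes) and above for 1 (14.5%). The members below PBS that were not called were Farsb, Mars1, Nars and Sars, at log2 differences of -0.27 to -0.16, and the member above was Aars2 (0.18 ± 0.15, edgeR adjusted p = 0.484).

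Eprs (chr1:185363044-185428360, plus strand) encodes the fused enzyme for glutamate and proline. It stood at FPKM 47.30, 45.84 and 48.10 in PBS 1 to 3 and at 35.35, 34.16 and 37.43 in Oxa 1 to 3. The Oxa libraries were the lowest of all 12, and the log2 change was -0.39 ± 0.08 (edgeR adjusted p = 0.0093).

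Iars2 (chr1:185284726-185329396, minus strand), the mitochondrial isoleucine enzyme, lies near Eprs on the same chromosome, on the other strand. It had the largest fall, from FPKM 10.90, 14.05 and 11.63 in PBS to 7.87, 7.17 and 7.94 in Oxa. Again the Oxa libraries were the lowest of the 12, and the log2 change was -0.66 ± 0.11 (adjusted p = 0.00388). It overlaps Rab3gap2 by 2034 bases on the opposite strand, and how reads in that stretch were assigned was not examined.

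Tars2 (chr3:95739976-95754883, minus strand), the mitochondrial threonine enzyme, fell from 10.10, 9.31 and 11.49 in PBS to 7.21, 6.86 and 7.51 in Oxa. The groups did not overlap, and the log2 change was -0.51 ± 0.10 (edgeR adjusted p = 0.00979). Its cytosolic counterpart Tars (chr15:11382301-11399665, minus strand) fell from 96.14, 107.66 and 96.14 to 77.75, 74.62 and 81.90, also without overlap. The log2 change of Tars was -0.35 ± 0.09 (adjusted p = 0.0287). Threonine was thus the amino acid for which both enzyme genes were called lower, while the third threonine gene, Tarsl2, gave a log2 difference of 0.20 ± 0.12 (adjusted p = 0.296).

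Rars (chr11:35808381-35834506, minus strand), the most abundant synthetase message, fell from 141.84, 130.75 and 134.81 in PBS to 94.25, 100.78 and 105.43 in Oxa. All 3 Oxa libraries were below the other 9, and the log2 change was -0.43 ± 0.10 (edgeR adjusted p = 0.0188). Lars, the cytosolic leucine enzyme and a known leucine sensor of the mTORC1 pathway, lies at chr18:42202298-42262194 on the minus strand. It fell from 43.18, 48.66 and 43.33 to 35.48, 35.05 and 37.32, without overlap, at a log2 change of -0.32 ± 0.08 (adjusted p = 0.0287).

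The calls for Eprs, Iars2 and Tars2 were kept in all 15 alternatives. Those for Lars, Rars and Tars were lost without PBS 1 and without any single Oxa library, at edgeR adjusted p between 0.053 and 0.114. With no filter on low values they were lost too (0.066, 0.069 and 0.0936), as were those for Lars and Tars in the 6 compared libraries alone (0.0911 and 0.0621). Without PBS 2, 12 members were called where 25.5% of all genes were: Ears2, Farsb and Mars1 joined the genes called lower, and Cars, Rars2 and Tarsl2 were called higher (log2 0.34, 0.33 and 0.32). Cars, the cysteine enzyme, stood at 23.99 in PBS 2 and at 15.72 and 15.98 in the other PBS libraries, against 20.89, 19.53 and 19.46 in Oxa, so that PBS 2 alone made the groups overlap. Hars, the histidine enzyme, was likewise highest in PBS 2 (38.21, against 23.49 to 31.06 in the other 11 libraries).

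Summed over the class, the falls made a small difference in level. The 21 cytosolic genes summed to FPKM 1296 ± 52.8 in PBS, 1310 ± 53.9 in APAP, 1178 ± 27.5 in Oxa and 1277 ± 56 in OAP2 (SD, n = 3). The Oxa sums (1151 to 1206) lay below all PBS sums (1244 to 1349). The 8 complex genes alone summed to 411, 414 and 435 in Oxa 1 to 3 and to 479, 493 and 471 in PBS 1 to 3. The 16 mitochondrial genes other than Lars2 summed to 76.1 ± 3.6 in Oxa and 84.1 ± 3.12 in PBS, also without overlap. The median log2 difference was -0.06 over the cytosolic genes, 0.02 over the mitochondrial genes and -0.01 over all genes tested.

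APAP against PBS gave 0 of 38 called members in edgeR, where 0.0166% of all genes were called. At an unadjusted p below 0.05 there were 2 members, where 1103 of the 12036 genes tested were. DESeq2 and each of the other alternatives also called 0 members (0.0249% of all genes were called without PBS 2). The smallest p among the cytosolic genes was that of Wars, at FPKM 85.30, 74.24 and 81.55 in APAP against 67.78, 74.81 and 55.95 in PBS. The groups overlapped, and the log2 difference was 0.32 ± 0.12 (edgeR adjusted p = 0.432). The second of the 2 was Aars, at a log2 difference of 0.23 ± 0.09 (adjusted p = 0.486). Among the mitochondrial genes the smallest p was that of Vars2, the valine enzyme, at 11.95, 9.07 and 12.45 in APAP against 10.10, 7.06 and 9.93 in PBS, a log2 difference of 0.34 ± 0.17 (adjusted p = 0.568). The APAP libraries lay above every PBS library for 3 members (4.67% of all genes) and below for 3 (11.2%), among them Eprs, Lars2 and Rars above and Mars1 and Tars below. The 95% interval of the log2 difference for Eprs, called in Oxa, ran from -0.04 to 0.30 in APAP.

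OAP2 against Oxa compares the treatments that each gave calls against PBS. Of 38 members, 6 were called (15.8%), where 12.9% of all genes were (6.02% higher and 6.91% lower). Iars2, Rars, Eprs and Wars were higher in OAP2, and Mars1 was lower. Iars2 stood at FPKM 13.51, 12.12 and 10.65 in OAP2 against 7.87, 7.17 and 7.94 in Oxa, with no overlap. Its log2 difference was 0.66 ± 0.11 (edgeR adjusted p = 0.00205). Rars stood at 130.59, 134.08 and 165.59 in OAP2, with OAP2 3 far above the others, and each value exceeded all Oxa values.

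For Rars the log2 difference was 0.52 ± 0.10 (edgeR adjusted p = 0.00581). Eprs, at 44.05, 48.46 and 47.34 in OAP2, also exceeded every Oxa library, by a log2 difference of 0.39 ± 0.08 (adjusted p = 0.00682). The calls of these 3 genes were kept in all 16 alternatives. Between OAP2 and PBS, which share the OAP2 libraries with this comparison, the log2 differences were 0.00058 ± 0.11 for Iars2, 0.09 ± 0.10 for Rars and -0.00092 ± 0.08 for Eprs, with 95% intervals of -0.23 to 0.23, -0.13 to 0.31 and -0.17 to 0.17.

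Wars was higher in OAP2 than in Oxa (62.83, 68.77 and 68.77 in Oxa) by a log2 difference of 0.46 ± 0.12 (edgeR adjusted p = 0.0198). Mars1 was lower in OAP2 than in Oxa (33.06, 30.59 and 34.18 in Oxa) by a log2 difference of -0.35 ± 0.08 (adjusted p = 0.0115). The Mars1 call was lost without Oxa 1 (adjusted p = 0.0598) or Oxa 3 (0.0585), and the Wars call without Oxa 1 (0.0788), Oxa 3 (0.0547) or OAP2 2 (0.0507), or with no filter on low values (0.0673). With PBS 2 out of the shared spread, 11 members were called (5 higher, 6 lower, 22.8% of all genes called), with Gars now among those higher and Aars2, Cars, Sars2 and Vars among those lower. OAP2 libraries lay above all Oxa libraries for 7 members (15.6% of all genes) and below for 8 (20.5%).

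OAP2 against APAP gave 1 called member, Mars1, lower in OAP2 (APAP 34.37, 33.59 and 36.34) by a log2 difference of -0.48 ± 0.08 (edgeR adjusted p = 0.0252), where 0.474% of all genes were called (0.274% higher and 0.199% lower). OAP2 libraries lay above all APAP libraries for 3 members (14.6% of all genes) and below for 8 (11.1%). The call was lost without any single APAP library, and without OAP2 1 or OAP2 2, at adjusted p between 0.0698 and 0.157, and with no filter on low values (0.069). Vars had a log2 difference of -0.54 ± 0.13 (adjusted p = 0.0845). With PBS 2 out of the shared spread, Vars was called with Mars1, and 7.61% of all genes were called. The mitochondrial gene with the smallest p was Tars2, at 8.72, 8.52 and 6.86 in OAP2 and 9.18, 9.92 and 10.22 in APAP, a log2 difference of -0.31 ± 0.10 (adjusted p = 0.184).

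**Figure D3:**
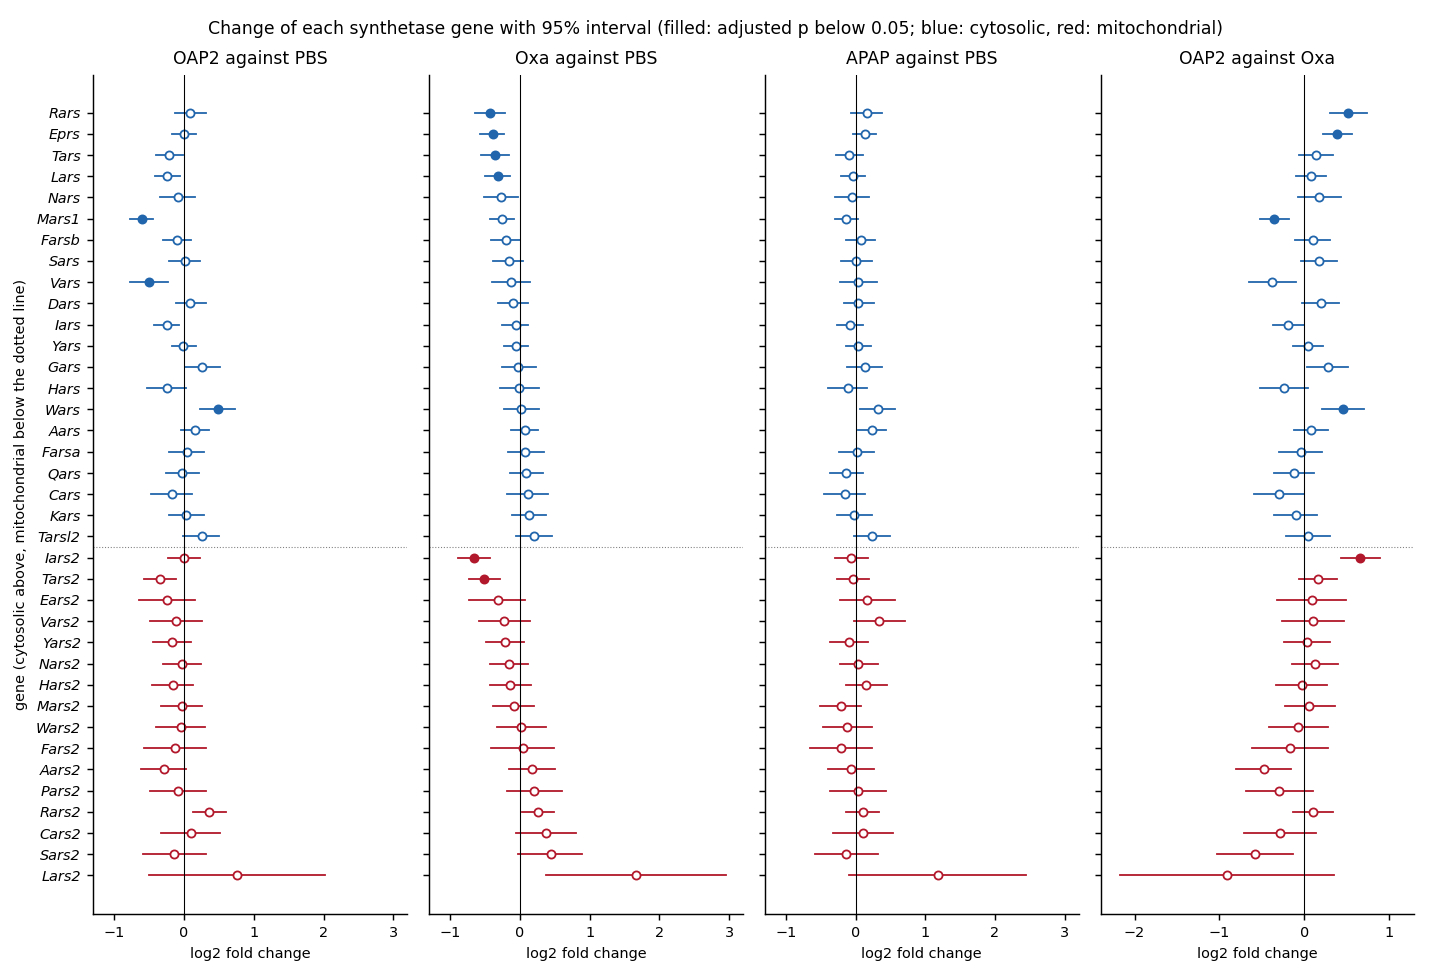
Log2 fold change of 37 synthetase genes with its 95% interval in 4 comparisons, cytosolic genes (blue) above the dotted line and mitochondrial genes (red) below, in the order of their change in Oxa against PBS; filled points have an edgeR adjusted p below 0.05. Most intervals cross 0, none is filled for APAP, and the interval of Lars2 is the widest in every panel.

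Over all comparisons 10 of the 38 members were called at least once, 5 of them in more than 1 comparison, and 28 in none. The matching shares of all genes tested were not counted, so these counts have no background beside them. Some pairs, picked here after their values were seen, differed in balance between groups. The ratio of Iars to Iars2 was 7.86, 8.65 and 7.89 in Oxa 1 to 3 and between 3.97 and 5.61 in the other 9 libraries, while Iars itself gave a log2 difference of -0.06 ± 0.08 in Oxa against PBS (edgeR adjusted p = 0.682). The ratio of Rars to Rars2 was 9.25 ± 0.964 in Oxa and 15 ± 1.75 in PBS, without overlap. The ratio of Eprs to Pars2, the mitochondrial proline enzyme, was 20.1, 16.1 and 17.5 in Oxa and between 23.1 and 33.9 elsewhere. In OAP2 the ratio of Mars1 to Mars2 was 13.8, 13.6 and 14.4, below the 16 to 24.2 of the other 9 libraries. With 3 libraries against 3, an exact permutation test of such a ratio cannot give a p below 0.1, so none was run.

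Lars2 (chr9:123366927-123462666, plus strand) varied more than any other member. It ranged 9.33-fold over the libraries, and its coefficient of variation within groups averaged 52.9%. PBS 1 to 3 stood at FPKM 44.41, 37.95 and 23.75, APAP at 72.74, 66.17 and 96.36, Oxa at 76.53, 221.59 and 33.78, and OAP2 at 43.70, 108.39 and 26.46. All APAP libraries lay above all PBS libraries, while Oxa and OAP2 each spanned a wide range, with Oxa 2 and OAP2 2 the highest. The log2 difference from PBS was 1.67 ± 0.60 in Oxa (edgeR adjusted p = 0.0909) and 1.18 ± 0.59 in APAP (adjusted p = 0.577), and neither was called.

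Lars2 was set beside CT010467, an annotated ribosomal RNA gene, which ran from FPKM 1178.17 in PBS 3 to 6482.23 in Oxa 2. This gene was picked after its values were seen, so its relation to Lars2 is a description and no p is given. On log2 FPKM over the 12 libraries, Pearson's r was 0.935 and Spearman's rho 0.867. Without Oxa 2 and OAP2 2, the libraries farthest from the median level of CT010467, r was 0.844, and over deviations from the group means it was 0.955. The libraries were selected by poly(A), and the part of ribosomal RNA reads in the Lars2 values was not tested.

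**Figure D4:**
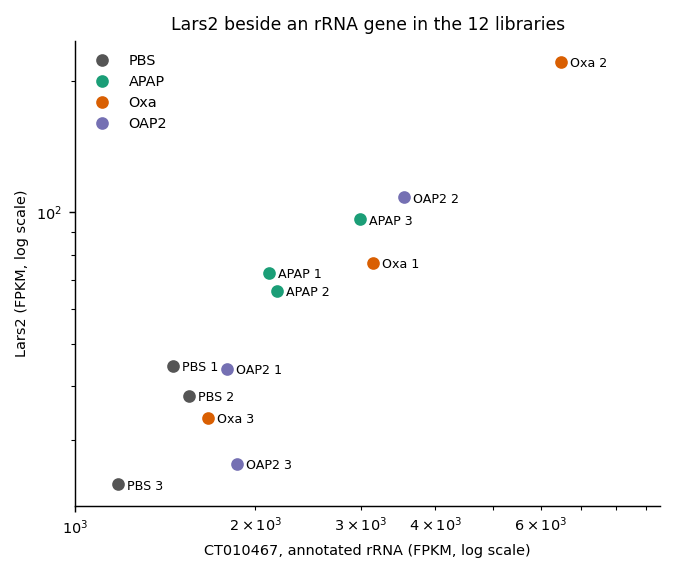
FPKM of Lars2 against FPKM of the annotated ribosomal RNA gene CT010467 in each of the 12 libraries, both on log axes, coloured by group. The points rise together from PBS 3 (1178.17 and 23.75) to Oxa 2 (6482.23 and 221.59), and libraries of the same group lie far apart in Oxa and OAP2.

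The partners of the synthetases were counted in the same way. Of 20 genes on this list (scaffolds of the complex, editing and transfer factors, amidotransferase and selenocysteine enzymes, and tRNA carriers), 1 was called in OAP2 against PBS and 1 in OAP2 against Oxa, both lower in OAP2. The share was 5% in each, where 5.25% and 12.9% of all genes were called. In OAP2 against Oxa it was Aarsd1, an alanyl-tRNA editing protein, at FPKM 6.91, 6.90 and 7.74 in OAP2 and 9.32, 10.06 and 8.83 in Oxa, without overlap (log2 -0.38 ± 0.10, edgeR adjusted p = 0.0292). The call was lost without any single Oxa library, without OAP2 1 or OAP2 2, with no filter on low values and in the 6 compared libraries alone, at adjusted p between 0.0529 and 0.175. edgeR called 0 of the 20 in each of the other comparisons, with 4 at an unadjusted p below 0.05 in Oxa against PBS, 1 in APAP against PBS and 2 in OAP2 against APAP. Of all genes, 10.1%, 0.0166% and 0.474% were called in these comparisons. Of the 12036 genes tested, 3261, 1103 and 1835 had an unadjusted p below 0.05 there. In Oxa against PBS, DESeq2 called 1 higher and 1 lower, and edgeR called 1 higher with FPKM of at least 5 required and 1 lower without PBS 1. The share of all genes called was not counted in these settings. Without PBS 2, OAP2 against PBS gave 1 higher and 1 lower (10%, where 16.4% of all genes were called) and Oxa against PBS 1 higher (5%, all genes 25.5%). In the same fit, OAP2 against Oxa gave 2 higher and 2 lower (20%, all genes 22.8%). APAP against PBS and OAP2 against APAP gave 0 there (all genes 0.0249% and 7.61%). In Oxa against PBS the smallest p belonged to Tufm and Qrsl1 (log2 0.30 and -0.46, adjusted p = 0.0686 and 0.069), and in OAP2 against APAP to Ptrh2 and Qrsl1 (0.36 and -0.37, 0.21 and 0.269). The scaffold genes of the complex, Aimp1, Aimp2 and Eef1e1, had FPKM 13 ± 1.25, 10.2 ± 1.01 and 12 ± 0.461 in Oxa and 14.9 ± 2.19, 13.7 ± 2.6 and 12.4 ± 4.92 in PBS.

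The amino acid response genes, a list of 27 with the sensor Eif2ak4 (GCN2), Atf4 and known ATF4 targets, were counted beside the synthetase genes. In OAP2 against PBS, 6 were called higher and 0 lower (22.2%, where 5.25% of all genes were called), with a median log2 difference of 0.23, beside -0.07 for the 38 synthetase genes. Those with the largest test statistics were Ddit3 (log2 0.74 ± 0.09), the transcription factor Atf5 (1.00 ± 0.13), the phosphatase subunit Ppp1r15a (0.52 ± 0.09) and the secreted protein Stc2 (0.69 ± 0.13), each at an edgeR adjusted p of 0.00991 or less. In Oxa against PBS the list split (14.8% called, where 10.1% of all genes were), with Ddit3 higher (0.46 ± 0.09) and 3 genes lower. These were Cth, which makes cysteine (-1.67 ± 0.16), the asparagine synthetase gene Asns (-0.53 ± 0.09) and the mitochondrial folate enzyme Aldh1l2 (-1.24 ± 0.23), each at an adjusted p of 0.00645 or less. PBS 2 stood far above PBS 1 and 3 for Chac1 (FPKM 155.34, against 46.19 and 33.80) and Sesn2 (24.60, against 9.39 and 7.00). Without PBS 2, 5 genes were called higher in Oxa, Chac1 and Sesn2 among them (log2 1.68 and 1.34), and 6 lower, where 25.5% of all genes were called.

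Between OAP2 and Oxa, 10 of the 27 were called higher in OAP2 and 0 lower (37%, where 12.9% of all genes were called). Those with the largest test statistics were Atf5, Cth, Slc3a2 and Ppp1r15a (log2 1.22, 1.17, 0.76 and 0.63). Asns, like Eprs, was lower in the Oxa libraries than in all others, at FPKM 152.33, 157.04 and 168.75 in Oxa, against 240.50, 224.56 and 227.80 in PBS and 213.05, 224.72 and 260.38 in OAP2. In APAP against PBS, edgeR gave 0 calls on this list and DESeq2 gave 1 higher. In edgeR, 2 genes of the list had an unadjusted p below 0.05, where 1103 of the 12036 genes tested did. Atf5 and Stc2 had the smallest p (log2 0.61 and 0.32, edgeR adjusted p = 0.216 and 0.495). OAP2 against APAP gave 1 call, Ddit3 (0.62 ± 0.09, edgeR adjusted p = 0.0152), and 4 with DESeq2. The edgeR share was 3.7%, where 0.474% of all genes were called. The Ddit3 call was lost without any single APAP library, without OAP2 1 or OAP2 2 and with no filter on low values, at edgeR adjusted p between 0.0629 and 0.0896. Among the 6 compared libraries alone, the counts were 2 higher in OAP2 against PBS, 12 higher and 1 lower in OAP2 against Oxa and 3 higher in OAP2 against APAP. DESeq2 called 7 higher and 1 lower in OAP2 against PBS and 1 higher and 6 lower in Oxa against PBS. Without OAP2 3, edgeR called 6 higher and 1 lower in OAP2 against PBS. The share of all genes called was not counted with DESeq2, in the compared libraries alone or without OAP2 3. The list counts in these settings thus have no background beside them. Without PBS 2, OAP2 against PBS gave 12 higher (44.4%, where 16.4% of all genes were called) and Oxa against PBS 5 higher and 6 lower (40.7%, all genes 25.5%). In the same fit, OAP2 against Oxa gave 13 higher (48.1%, all genes 22.8%) and OAP2 against APAP 6 higher (22.2%, all genes 7.61%).

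Promoter sequences were looked up to see which members carry TGATGNAA (N for any base), the core of the composite element through which ATF4 acts with C/EBP proteins, and CACGTG, the E-box bound by MYC. RefSeq windows (GRCm38.p6) were found for 28 of the 38 members, and 250 bases before the start site were searched on both strands. Members without a window include the called genes Lars, Rars, Vars and Wars, which were therefore not searched. TGATGNAA was present in 3 of 14 cytosolic genes (Aars, Gars and Tars) and 0 of 14 mitochondrial genes. It was present in 3.26% of 17491 protein-coding genes, by the first window of each, and in 3.45% of 32851 windows of all genes. CACGTG was present in 3 cytosolic genes (Aars, Farsb and Iars) and 0 mitochondrial genes, beside 6.64% of those protein-coding genes and 6.02% of windows. In Aars, which holds both, the matches do not overlap. The RefSeq start site used for Aars lies 698 bases from the gene start in the deposited annotation, so its window lies inside the annotated gene. Shown here are the 120 bases before the start site of Gars and Tars, which hold the element, and of Mars1 and Eprs, called in the treated groups, which hold neither motif in the bases searched. They lie at chr6:55037881-55038000 (Gars, plus strand), chr15:11399659-11399778 (Tars, minus strand), chr10:127311787-127311906 (Mars1, minus strand) and chr1:185362924-185363043 (Eprs, plus strand). Each is printed 5′ to 3′ on the strand of its gene, with the match to the reverse complement of TGATGNAA in capitals.
Gars: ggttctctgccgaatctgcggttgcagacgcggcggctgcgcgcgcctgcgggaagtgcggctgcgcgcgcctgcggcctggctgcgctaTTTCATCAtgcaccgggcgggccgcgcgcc
Tars: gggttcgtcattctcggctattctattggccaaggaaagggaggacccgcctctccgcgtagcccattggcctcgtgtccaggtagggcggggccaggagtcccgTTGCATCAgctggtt
Mars1: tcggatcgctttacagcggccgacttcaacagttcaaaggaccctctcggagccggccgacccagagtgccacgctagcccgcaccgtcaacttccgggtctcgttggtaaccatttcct
Eprs: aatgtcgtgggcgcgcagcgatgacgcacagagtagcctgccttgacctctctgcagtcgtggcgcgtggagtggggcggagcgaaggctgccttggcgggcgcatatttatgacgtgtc
The match begins 30 bases before the start site in Gars and 15 bases before it in Tars. In OAP2 against PBS the log2 differences of Aars, Gars and Tars were 0.15, 0.26 and -0.21, and in Oxa against PBS 0.07, -0.02 and -0.35, of which the last alone was called. A match is a description of letters in the window and shows neither binding nor its absence.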

How the data were processed

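Per the labels' protocols, Trizol RNA was selected by poly(A), made into strand-marked (dUTP) libraries and sequenced in pairs. The submitters' processing notes list StringTie 2.1.6, HISAT2 2.2.1, cutadapt 1.9, edgeR and DESeq2, without their roles. The deposited counts, per the file headers 1 per gene and library, are estimated counts (expected counts): whole numbers, not scaled between libraries, in which 4 occurs 7655 times, 3 occurs 5992 times and 5 occurs 3357 times. The deposited FPKM values are the authors' own, scaled to length and to mapped fragments. Columns named CON were read as the PBS libraries by inference, since no other group lacks columns. The notes name build mm9, but all 38 members matched GENCODE M21 by identifier and 30 had identical positions, so positions are given in GRCm38.

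The 12036 genes that reached FPKM 1 in 3 or more of the 12 libraries were tested. With TMM scaling, edgeR 4.0.16 under R 4.3.3 fitted the counts by 2-sided quasi-likelihood tests with 1 mean per group over all libraries, and Benjamini-Hochberg adjustment with a threshold of 0.05. The SE is the log2 change divided by the square root of F, and the biological coefficient of variation common to all genes was 18.1%. The procedure was tested on simulated data. Alternatives were RLE and upper quartile scaling, DESeq2 1.42.0, limma 3.58.1 on log2(FPKM + 1) and log2(FPKM + 0.1), other filters, the compared libraries alone, a replicate block, and each library left out. Medians over members are descriptions with no test. Members and lists were chosen with earlier results of these data known. Full values are given for members called in any comparison and for the cytosolic and mitochondrial member with the smallest p in each; from each list, up to 4 called genes with the largest F are named, or the 2 with the smallest p. The marker lists cover epithelial cells, red blood cells, neutrophils, macrophages, fibroblasts, endothelial cells and lymphocytes. Some genes that met these rules are not reported here.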

Additional observations from a re-analysis of the deposited data

How the results depend on the processing

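The 20 results of single members tested in this way, which are the called members and those with the smallest p, kept their direction under the alternatives run. The count for APAP against PBS stayed at 0. For OAP2 against PBS, 3 members were called, against 7 with DESeq2, 1 with no filter on low values, 0 from the compared libraries alone and 1 to 7 with a library left out, the 7 being without PBS 2. For Oxa against PBS, 6 were called, against 3 with no filter and 3 to 12 with a library left out, the 12 being without PBS 2. For OAP2 against Oxa, 6 were called, against 3 to 11 with a library left out, the 11 being without PBS 2. For OAP2 against APAP, 1 was called, against 2 with DESeq2, 0 with no filter, 2 from the compared libraries alone and 0 to 2 with a library left out. A fit with no filter adjusts over more genes and a fit of the compared libraries alone has fewer samples. Shares of all genes called were counted for the main fit and the fit without PBS 2 only. Counts in the other settings thus have no background beside them, and why the counts differ between settings was not tested. Replicate numbers did not pair the libraries (correlations of -0.152 to 0.155 over 18 same-numbered pairs, and 1 library correlated best with its own number). With a replicate block, 2, 6 and 0 members were called in OAP2, Oxa and APAP against PBS, 5 for OAP2 against Oxa, and 1 for OAP2 against APAP, and Vars in OAP2 against PBS was not called (edgeR adjusted p = 0.0505).

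The mitochondrial median log2 difference in OAP2 against PBS (-0.12) was -0.09 in limma on log2(FPKM + 1) and -0.12 to 0.0029 with a library left out, and the cytosolic one (-0.01) was -0.07 to 0.03. In Oxa against PBS the mitochondrial median (0.02) was -0.20 with FPKM of at least 5 required and -0.09 to 0.11 with a library left out. In APAP against PBS (-0.03) it was -0.07 with either limma pseudocount, -0.003 with Tarsl2 counted as mitochondrial and -0.05 to 0.06 with a library left out. In OAP2 against Oxa (-0.03) it was 0.01 with upper quartile scaling, 0.12 with FPKM of at least 5, 0.0022 with Tarsl2 counted as mitochondrial and -0.05 to 0.04 with a library left out. In OAP2 against APAP (-0.08) it was -0.16 to -0.06 with a library left out.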
